A study of Mus musculus with 15 samples.

Results

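The epidermal differentiation complex is a block of neighbouring genes on mouse chromosome 3 that code for proteins of the outermost, cornified layer of the skin. Members were taken by symbol, as every gene whose name begins with Lce, Sprr or S100a and a digit, plus Lor, Ivl, Rptn, Flg2, Hrnr, Tchhl1, Crnn, Kprp, Lelp1 and Crct1. This gave 60 of the 24027 gene symbols that the study's 4 result tables have in common. The 60 comprised 14 Lce1 genes, 6 Lce3 genes, Lce6a, 2 Sprr1 genes, 11 Sprr2 genes, Sprr3 and Sprr4, 14 S100a genes, 5 fused-type genes and 5 other single genes. No symbol began with Lce2. All 60 lay between positions 90511034 and 93564643 of chromosome 3 (GRCm38, GENCODE release M21), a stretch of 3.05 Mb. They made up 60 of its 76 genes annotated as protein-coding or as polymorphic pseudogenes. The Sprr2 genes include Sprr2j-ps, a pseudogene by its name.

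The study sequenced total RNA from female SKH1 skin. SKH1 mice are hairless, and in them repeated ultraviolet B light induces actinic keratoses, scaly precancerous patches of the epidermis. The mice were 6 to 8 weeks old and received 500 J/m2 of ultraviolet B on 5 days a week for 10 weeks. Placebo mice had 0.25 g of a placebo cream on 5 days a week, and gave lesional skin, perilesional skin, non-lesional skin and skin not exposed to ultraviolet light. Treated mice had the same amount of GZ21T cream on the same schedule and gave lesional skin. Each of these 5 groups had 3 libraries, 15 in all. The labels number the placebo libraries 1 to 3 at each site but do not say that the libraries came from separate animals, so the p-values cover only how these libraries vary, which may be technical. Headers name a group "back", which was taken as the unexposed skin by elimination. If that group is also another body site, site and exposure cannot be told apart in any comparison with it.

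Keratinocytes leaving the basal layer of the epidermis replace their plasma membrane with a cornified envelope, in which transglutaminases cross-link loricrin, involucrin, small proline-rich (Sprr) proteins and late cornified envelope (Lce) proteins. Fused-type proteins such as filaggrin-2, hornerin and repetin join a calcium-binding S100 domain to long repeats and serve the keratin matrix and the envelope. The S100a proteins are small calcium-binding proteins. S100a8 and S100a9 are abundant in neutrophils and are also made by stressed keratinocytes. In human skin, LCE3 and SPRR2 genes are known to be switched on in wounded and psoriatic epidermis, whereas LCE1 genes are typical of normal epidermis.

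Promoters are shown for 1 or 2 genes of the groups on which the results turn, because the complex contains families of near copies whose fold changes differed in sign. Each sequence is from RefSeq (GRCm38.p6), written 5′ to 3′ along the gene, with 250 bases before and 50 bases after the annotated start. Capitals mark matches to the AP-1 motif TGANTCA and to the TATA box TATAAA, each searched on both strands.
Lce1h (chr3:92765016-92765315, minus strand): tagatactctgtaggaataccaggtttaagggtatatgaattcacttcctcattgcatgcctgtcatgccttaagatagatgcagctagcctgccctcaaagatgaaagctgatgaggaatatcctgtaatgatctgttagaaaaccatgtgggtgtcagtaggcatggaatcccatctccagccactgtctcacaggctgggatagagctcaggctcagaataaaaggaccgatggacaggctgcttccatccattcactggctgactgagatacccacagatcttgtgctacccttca
Lce1a1 (chr3:92648258-92648557, minus strand): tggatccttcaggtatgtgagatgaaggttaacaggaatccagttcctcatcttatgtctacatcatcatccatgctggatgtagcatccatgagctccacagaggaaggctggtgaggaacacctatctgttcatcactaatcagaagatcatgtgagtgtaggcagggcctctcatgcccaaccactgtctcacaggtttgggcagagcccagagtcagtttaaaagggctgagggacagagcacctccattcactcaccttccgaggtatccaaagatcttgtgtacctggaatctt
Lce3c (chr3:92944236-92944535, plus strand): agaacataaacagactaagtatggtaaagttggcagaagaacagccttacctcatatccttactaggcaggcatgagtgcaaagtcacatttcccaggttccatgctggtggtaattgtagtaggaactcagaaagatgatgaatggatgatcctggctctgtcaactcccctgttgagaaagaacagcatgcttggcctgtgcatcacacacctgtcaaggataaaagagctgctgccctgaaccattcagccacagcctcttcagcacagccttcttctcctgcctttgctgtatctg
Sprr2h (chr3:92385435-92385734, plus strand): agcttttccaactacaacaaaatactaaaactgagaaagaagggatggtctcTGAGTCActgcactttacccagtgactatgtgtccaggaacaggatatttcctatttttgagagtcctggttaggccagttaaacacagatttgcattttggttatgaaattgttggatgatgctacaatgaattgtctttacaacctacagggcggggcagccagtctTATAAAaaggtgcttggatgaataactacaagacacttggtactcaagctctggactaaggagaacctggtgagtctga
Rptn (chr3:93393449-93393748, plus strand): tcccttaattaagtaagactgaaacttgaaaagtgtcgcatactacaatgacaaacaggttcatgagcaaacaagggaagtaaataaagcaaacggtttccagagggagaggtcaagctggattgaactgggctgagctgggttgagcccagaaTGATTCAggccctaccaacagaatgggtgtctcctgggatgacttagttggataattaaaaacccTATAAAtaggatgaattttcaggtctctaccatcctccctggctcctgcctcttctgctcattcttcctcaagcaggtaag
Lor (chr3:92083093-92083392, minus strand): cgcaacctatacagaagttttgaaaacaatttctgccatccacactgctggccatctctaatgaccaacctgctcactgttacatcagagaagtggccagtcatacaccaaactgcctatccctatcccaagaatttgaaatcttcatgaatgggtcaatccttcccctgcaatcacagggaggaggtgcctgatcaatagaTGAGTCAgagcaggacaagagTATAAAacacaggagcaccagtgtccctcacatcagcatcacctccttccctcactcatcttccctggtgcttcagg
RefSeq held a promoter for 52 of the 60 members. The AP-1 motif occurred in 7.81% of all 32851 promoters of this length, in 0 of 13 Lce1 promoters and in 0 of 6 Lce3 promoters. It occurred in 2 of 2 Sprr1 promoters, 7 of 9 Sprr2 promoters, 4 of 5 fused-type promoters and those of Lor and Ivl. In Sprr2h the match began 198 bases before the start, in Rptn 96 bases and in Lor 48 bases before it. TATAAA occurred in 13.6% of all promoters and in 7 of 9 Sprr2 promoters. The Sprr2a1 and Sprr2a2 promoters held neither motif. In the median pair, Lce1 promoters were 65.7% identical to each other over 78 pairs, Sprr2 promoters 65.1% over 36 pairs, and an Lce1 and an Sprr2 promoter 51.7%. These matches describe letters in a window and not bound sites.

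The deposited tables hold, for each gene, a log2 fold change and the Wald test of DESeq2, and no value per library, so whether libraries of different groups overlapped is not known. Each difference below is a log2 fold change ± its SE from 3 against 3 libraries. Rose and fell are used only of adjusted p under 0.05 over all genes tested. Lesional against perilesional skin and GZ21T lesional against placebo non-lesional skin were not tabulated and were derived from the deposited values under a model with group alone. The labels' shared numbers may pair the placebo sites, which that model leaves out, and the effect on the derived errors was not tested. Tested means here that a gene was given an adjusted p. Of the 60 members, 40 were tested in all 4 tables and 6 in none (Lce3b, Sprr2k, Sprr3, Lelp1, S100a5 and S100a2). S100a2 had no value anywhere. At least 1 of the 6 comparisons called 37 members, and 23 were called in none. Markers of basal and of spinous keratinocytes were tested in every comparison, 6 of 6 and 5 of 5. A bulk sample cannot tell fewer cells of a type apart from less RNA per cell.

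In the authors' deposited table for non-lesional over non-UV skin, 8 members rose and 0 fell among 53 tested, where 1.66% of all genes were called and 1.13% were called higher. No member was called among 54 in the authors' deposited table for perilesional over non-lesional skin, where 0.112% of all genes were called by DESeq2 and 0.0921% were called higher. Of these members, 4 had an unadjusted p under 0.05, as did 7.83% of all genes. From perilesional to lesional skin 0 members rose and 13 fell among 54 by the derived contrast, where 0.533% of all genes were called and 0.224% were called lower. The authors' deposited table for lesional over non-UV skin had 20 members higher and 4 lower among 54, against 18.3% of all genes called, 10.2% higher and 8.17% lower. Under GZ21T, in the authors' deposited table for lesional skin of both treatments, 14 members rose and 0 fell among 40, where 3.61% of all genes were called 1.31% higher and 2.29% lower. GZ21T lesional skin was last set against placebo non-lesional skin by the derived contrast. There 0 of 54 members and 0.0% of all 15187 genes passed, with 4 members and 3.31% of all genes at an unadjusted p under 0.05.

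**Figure D1:**
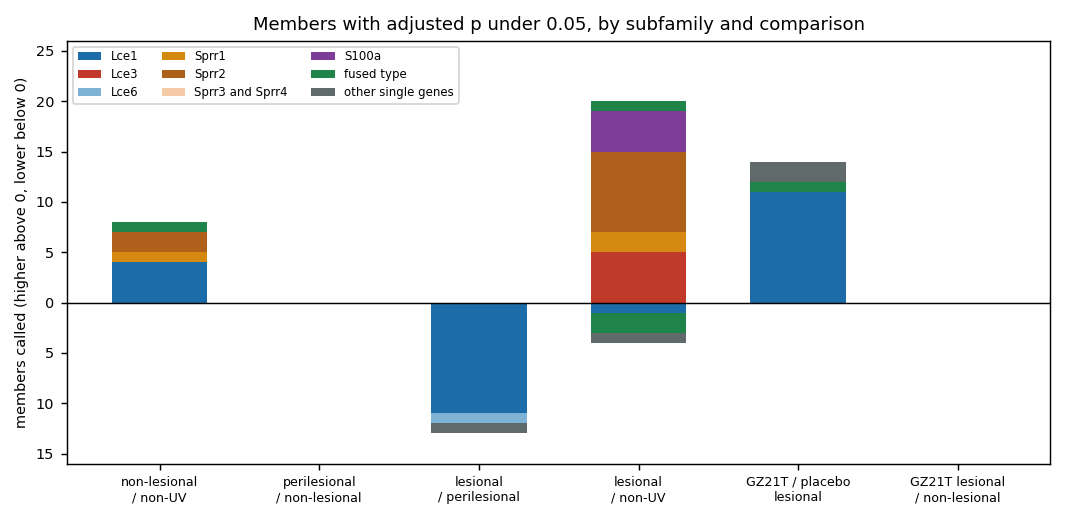
Number of members called higher (bars above 0) and lower (bars below 0) in each of the 6 comparisons at adjusted p under 0.05, coloured by gene group. Lce1 genes make up 11 of the 13 members lower in lesional than in perilesional skin and 11 of the 14 higher under GZ21T, while Sprr2 and Lce3 genes make up 8 and 5 of the 20 higher in lesional than in non-UV skin.

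The Lce1 genes, whose products are cross-linked into the envelope late in cornification, were higher in exposed non-lesional skin, fell in lesions and rose under GZ21T. In the authors' deposited table for non-lesional over non-UV skin the Lce1 median was 1.10, and 4 of 14 rose (Lce1e, Lce1f, Lce1g and Lce1h). From perilesional to lesional skin the derived median was -1.71, all 14 values were below 0, and 11 of 14 fell. In the authors' deposited table for GZ21T over placebo lesional skin all 14 values were above 0, with a median of 1.44, and 11 of 14 rose. The median of all tested genes was -0.02, 0.05 and -0.06 in these comparisons. Both sets of 11 comprised Lce1a1, Lce1a2, Lce1b, Lce1c, Lce1d, Lce1e, Lce1f, Lce1g, Lce1h, Lce1i and Lce1j, while Lce1k, Lce1l and Lce1m were called in neither. The fall and the rise use the same placebo lesional libraries, so the sets are not independent, and their likeness was not tested.

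Lce1h (chr3:92763215-92765065, minus strand) had the smallest adjusted p of the Lce1 genes in the comparisons just named. It was, per the authors' deposited table, 1.55 ± 0.34 higher in non-lesional than in non-UV skin, a 2.94-fold difference (adjusted p = 0.0011). By the derived contrast it fell by 1.89 ± 0.33 from perilesional to lesional skin (adjusted p = 0.00018). It rose by 1.58 ± 0.33 under GZ21T, 2.99-fold, per the authors' deposited table for the cream (adjusted p = 0.0027). Placebo lesions against non-UV skin, in the authors' deposited table, gave -0.04 ± 0.34 (adjusted p = 0.95), a difference smaller than its error. GZ21T lesions differed from placebo non-lesional skin by -0.02 ± 0.33, with a 95% interval of -0.66 to 0.63.

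The other Lce1 genes lay close around Lce1h in the lesion and cream comparisons. The derived fall from perilesional to lesional skin ran from -2.29 for Lce1a2 to -1.50 for Lce1f. The rise under GZ21T in the authors' deposited table ran from 1.34 for Lce1e to 1.83 for Lce1a2. Lce1c, for example, gave -1.94 ± 0.37 (adjusted p = 0.0011) by the derived contrast and 1.65 ± 0.37 (adjusted p = 0.0057) per the authors' deposited table for the cream. Lce1m, the Lce1 gene that lies beyond the Lce3 genes, was the Lce1 gene with a negative value in exposed skin without a lesion. Per the authors' deposited tables it was -0.64 ± 0.62 in non-lesional over non-UV skin (adjusted p = 0.87) and fell by 2.73 ± 0.63 in lesional against non-UV skin (adjusted p = 0.00047). It was the single Lce1 gene called in that comparison, where the Lce1 median was -0.63.

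Lce6a and Kprp, both neighbours of the Lce1 genes, fell from perilesional to lesional skin as well. Lce6a, a single-copy late envelope gene, fell by 1.96 ± 0.47 by the derived contrast (adjusted p = 0.015), and was 1.16 ± 0.48 in the authors' deposited table for the cream (adjusted p = 0.12). Kprp codes for a proline-rich keratinocyte protein. It fell by 1.30 ± 0.35 by the derived contrast (adjusted p = 0.041) and rose by 1.28 ± 0.35 in the authors' deposited table for GZ21T (adjusted p = 0.023). Among the 5 spinous keratinocyte markers, 0 were called from perilesional to lesional skin, with a derived median of -0.82. Krt1, Krt10, Dsg1a and Dsc1 were below 0 there and Krt2 was above 0. Per the authors' deposited table for the cream 2 of the 5 markers rose, where 1.31% of all genes were higher. These were Krt1, by 1.42 ± 0.38 (adjusted p = 0.019), and Dsg1a, by 1.06 ± 0.27 (adjusted p = 0.016). The part of the spinous markers in the Lce1 result was not tested.

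**Figure D2:**
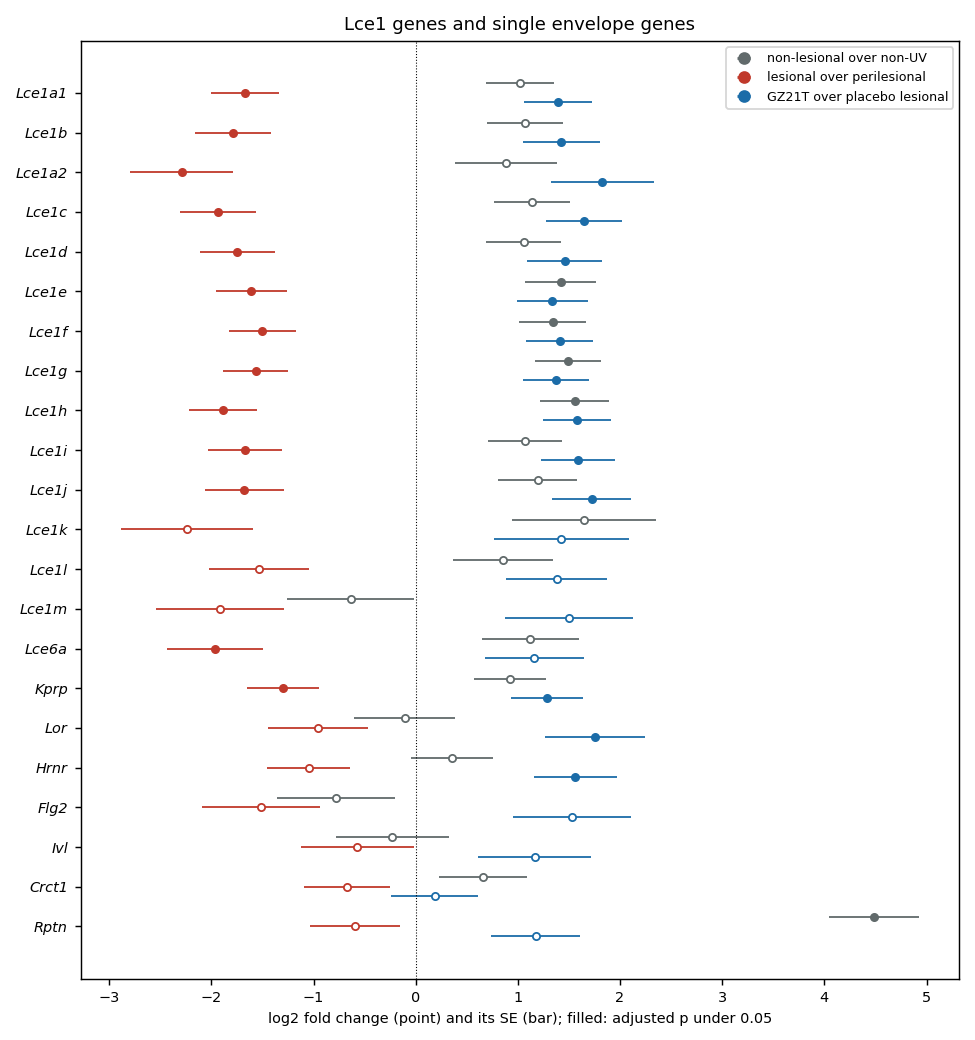
Log2 fold change (points) and SE (bars) of each Lce1 gene, Lce6a, Kprp, Lor, Hrnr, Flg2, Ivl, Crct1 and Rptn, for non-lesional over non-UV skin, lesional over perilesional skin and GZ21T over placebo lesional skin, with filled points where the adjusted p was under 0.05. In lesional over perilesional skin all 14 Lce1 genes lie between -2.29 and -1.50 and under GZ21T between 1.34 and 1.83, while Rptn has the value farthest from 0, 4.49, without a lesion.

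The fall and the rise rest on these errors being right. The derived fall was called for 0 members in place of 13 when the 3 squared SEs were summed as an upper bound, and for 6 when the spread of the Wald statistic was estimated from all genes. That second setting left 0 members in place of 14 under GZ21T and 0 of all genes.

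Loricrin, hornerin and filaggrin-2 transcripts fell in lesions against non-UV skin, and those of repetin rose. Lor codes for loricrin, the most abundant protein of the mature envelope. Lor, per the authors' deposited tables, fell by 1.61 ± 0.49 in lesional against non-UV skin (adjusted p = 0.011) and rose by 1.76 ± 0.49 under GZ21T, 3.38-fold (adjusted p = 0.026). Hrnr, the gene of hornerin, fell by 1.29 ± 0.40 (adjusted p = 0.014) and rose by 1.56 ± 0.40 (adjusted p = 0.016) per the same authors' deposited tables. Flg2, the gene of filaggrin-2, fell by 2.92 ± 0.58 in lesional against non-UV skin in the authors' deposited table (adjusted p = 3.6e-05), the lowest value among the tested members there. Its 1.53 ± 0.58 under GZ21T in the authors' deposited table missed the threshold (adjusted p = 0.090).

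The step from perilesional to lesional skin alone did not pass the threshold for these 3 genes. The derived values were -0.96 ± 0.49 for Lor (adjusted p = 0.48), -1.05 ± 0.40 for Hrnr (adjusted p = 0.27) and -1.52 ± 0.58 for Flg2 (adjusted p = 0.26). Tchhl1, a trichohyalin-like gene, and Crnn, the gene of cornulin, were called in no comparison. The authors' deposited table for lesional over non-UV skin gave -2.24 ± 0.92 for Tchhl1 (adjusted p = 0.069) and -0.85 ± 0.83 for Crnn (adjusted p = 0.51).

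Rptn (chr3:93393699-93399442, plus strand) rose by 4.49 ± 0.44 in non-lesional against non-UV skin in the authors' deposited table, 22.5-fold (adjusted p = 4.3e-20), the smallest adjusted p of all genes in that table. Perilesional over non-lesional skin gave -0.22 ± 0.44 in the authors' deposited table, and the derived step into the lesion gave -0.60 ± 0.44 (adjusted p = 0.68). Lesional skin stayed 12.7-fold above non-UV skin in the authors' deposited table, by 3.67 ± 0.44 (adjusted p = 1.7e-13). The 1.17 ± 0.44 under GZ21T in the authors' deposited table did not pass (adjusted p = 0.088). Repetin transcripts were therefore already high in exposed skin without a lesion.

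Involucrin, an early envelope protein, and Crct1, a cysteine-rich gene of the complex, were not called in any comparison. Ivl gave -0.36 ± 0.55 in lesional over non-UV skin (adjusted p = 0.70) and 1.16 ± 0.55 under GZ21T (adjusted p = 0.18) per the authors' deposited tables. Crct1 gave 0.43 ± 0.43 in lesional over non-UV skin in the authors' deposited table (adjusted p = 0.52). Lelp1, a late envelope-like gene, had no adjusted p.

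The Sprr genes, whose short proline-rich products bridge other envelope proteins, were higher in lesions, and some already in exposed skin without a lesion. Sprr1b rose by 2.95 ± 0.59 in non-lesional skin (adjusted p = 0.00020) and by 3.69 ± 0.59 in lesional skin (adjusted p = 1.1e-07), each against non-UV skin in the authors' deposited tables. Sprr1a gave 1.95 ± 0.60 in the first (adjusted p = 0.061) and rose by 3.45 ± 0.60 in the second of these authors' deposited tables (adjusted p = 1.6e-06). Under GZ21T both were near 0 in the authors' deposited table, Sprr1b at -0.09 ± 0.58 and Sprr1a at -0.26 ± 0.59.

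Of the Sprr2 genes, 8 of 10 tested rose in lesional against non-UV skin in the authors' deposited table, with a median of 4.63 against 0.08 over all tested genes. The largest value was 6.66 ± 0.83 for Sprr2a1 and Sprr2a2 in that authors' deposited table, 101-fold (adjusted p = 1.8e-12). These 2 rows were identical in every table and the genes share 96.3% and 96.5% of their 50-base words with another gene, so reads of one may be counted for the other. Counted once, they leave 7 Sprr2 genes that rose in lesional and 1 in non-lesional over non-UV skin, and without both 6 and 0. They were also the Sprr2 genes called in non-lesional over non-UV skin, at 4.57 ± 0.83 in the authors' deposited table (adjusted p = 2.5e-05). The other 6 that rose, Sprr2d, Sprr2e, Sprr2f, Sprr2g, Sprr2h and Sprr2i, ran from 4.19 ± 1.02 for Sprr2i to 5.22 ± 1.08 for Sprr2d in the authors' deposited table. Sprr2d rose by 5.22 ± 1.08 (adjusted p = 8.7e-05) and Sprr2h by 4.42 ± 0.86 (adjusted p = 2.5e-05) in lesional against non-UV skin in the authors' deposited table.

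No Sprr2 gene was called in the lesional over perilesional contrast or under GZ21T. By the derived contrast all 11 values into the lesion were above 0, with a median of 2.31. Under GZ21T all 11 were below 0 in the authors' deposited table, with a median of -2.65, and 0 of the 6 tested passed. Sprr2d there was at -2.65 ± 1.05 in the authors' deposited table (adjusted p = 0.11). Among Sprr2 genes Sprr2g had the values farthest from 0, 4.37 ± 1.41 into the lesion by the derived contrast (adjusted p = 0.14) and -4.42 ± 1.43 under GZ21T in the authors' deposited table, with no adjusted p. Sprr4, a single-copy member of the family, gave 1.91 ± 0.95 in lesional over non-UV skin in the authors' deposited table (adjusted p = 0.14).

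The Lce3 genes, which lie between Lce1l and Lce1m on the chromosome, rose in lesions against non-UV skin, with large errors. All 5 tested rose in lesional against non-UV skin in the authors' deposited table, from 4.16 ± 1.39 for Lce3e (adjusted p = 0.022) to 6.15 ± 1.61 for Lce3f (adjusted p = 0.0025). Lce3c rose by 5.19 ± 1.27 there in the authors' deposited table, 36.5-fold (adjusted p = 0.0011), and Lce3d by 4.92 ± 1.36 (adjusted p = 0.0044). Lce3a, which rose by 6.15 ± 2.21 in that authors' deposited table (adjusted p = 0.035), had the largest error of the 5. The untested Lce3b gave 4.70 ± 1.78 in the same authors' deposited table. Lce3b had no p-value, adjusted or unadjusted, in any of the 4 tables, so its value carries no test. For the cream, all 6 Lce3 values in the authors' deposited table were below 0, with a median of -1.68, and none had an adjusted p. Lesional over perilesional skin gave derived medians of -1.71 for Lce1 and 1.74 for Lce3, and no Lce3 gene was called there.

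**Figure D3:**
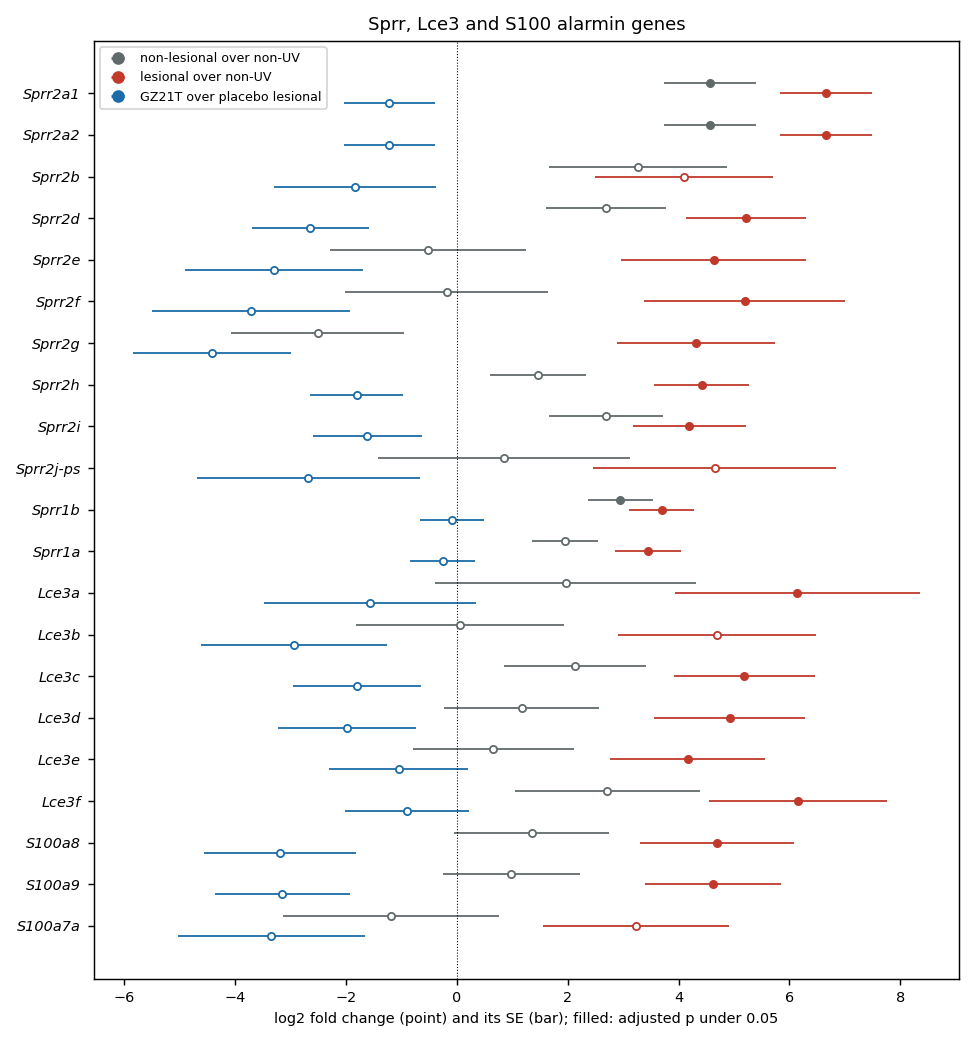
Log2 fold change (points) and SE (bars) of Sprr2, Sprr1 and Lce3 genes, S100a8, S100a9 and S100a7a, for non-lesional over non-UV, lesional over non-UV and GZ21T over placebo lesional skin, with filled points where the adjusted p was under 0.05. In lesional over non-UV skin the Lce3 values run from 4.16 to 6.15, and under GZ21T no point is filled.

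With the spread of the Wald statistic estimated from all genes, 3 members (Rptn, Sprr2a1 and Sprr2a2) remained of the 20 that rose and 0 of the 4 that fell. With adjustment over genes tested in all 4 tables, 13 rose.

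S100a8 and S100a9 code for the subunits of calprotectin. In the authors' deposited table for lesional over non-UV skin S100a8 rose by 4.69 ± 1.39, 25.9-fold (adjusted p = 0.0085), and S100a9 by 4.62 ± 1.23, 24.7-fold (adjusted p = 0.0029). Under GZ21T they were at -3.19 ± 1.37 (adjusted p = 0.14) and -3.15 ± 1.22 (adjusted p = 0.099) per the authors' deposited table. By the derived contrast the step from perilesional to lesional skin was 2.81 ± 1.37 for S100a8 (adjusted p = 0.45) and 3.07 ± 1.22 for S100a9 (adjusted p = 0.30).

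Neutrophil markers beside these values were sparse. Of 10 listed, 9 had rows, Camp and Ngp had no value, and Elane stood at 0 in lesional over non-UV skin. That authors' deposited table tested 3 of them, of which Cxcr2 rose, by 1.52 ± 0.50 (adjusted p = 0.020), while Csf3r gave 0.59 ± 1.05. The share of all genes called higher there was 10.2%. The list's median was 0.40 in that comparison, over 6 genes with a fitted value. Under GZ21T 1 marker was tested. The median of the 7 fitted there, -1.01, was the value of Retnlg, -1.01 ± 5.99, and so says little. The list's part in the S100a8 and S100a9 values was not tested. Cxcr2 also rose in non-lesional over non-UV skin, by 1.84 ± 0.50 (adjusted p = 0.023) per the authors' deposited table. It was not called into the lesion by the derived contrast (0.21 ± 0.45) or under GZ21T in the authors' deposited table (0.30 ± 0.45).

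S100a6, a calcium-binding protein of many epithelia, and S100a16 rose less. In the authors' deposited table for lesional over non-UV skin S100a6 rose by 0.85 ± 0.29 (adjusted p = 0.026) and S100a16 by 0.84 ± 0.25 (adjusted p = 0.010). S100a7a, a relative of human psoriasin, gave 3.23 ± 1.67 there in the authors' deposited table (adjusted p = 0.17). Under GZ21T it was at -3.35 ± 1.69 in the authors' deposited table, with no adjusted p. S100a10, the partner of annexin A2, gave -0.58 ± 0.28 in the authors' deposited table for lesional over non-UV skin (adjusted p = 0.12). S100a14 and S100a11, both of keratinocytes, gave 0.39 ± 0.26 and 0.27 ± 0.29 there in the authors' deposited table. S100a4 (-0.36 ± 0.36 in that authors' deposited table) shares 56.3% of its 50-base words with another gene and is uncertain.

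S100a3, known from hair, followed hair shaft keratins in sign and was not called. It gave -2.41 ± 1.06 in non-lesional over non-UV skin and -2.76 ± 1.17 in perilesional over non-lesional skin in the authors' deposited tables, and 3.20 ± 1.16 in the derived step into the lesion. The hair shaft list had medians of -2.34, -4.26 and 3.81 in these 3 comparisons, with 0 of its 16 genes called in each. Its part in the S100a3 values was not tested. S100a1, known from muscle, gave -1.06 ± 0.63 in non-lesional over non-UV skin in the authors' deposited table. The skeletal muscle list had a median of 1.83 there, with 0 of its 8 genes called.

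**Figure D4:**
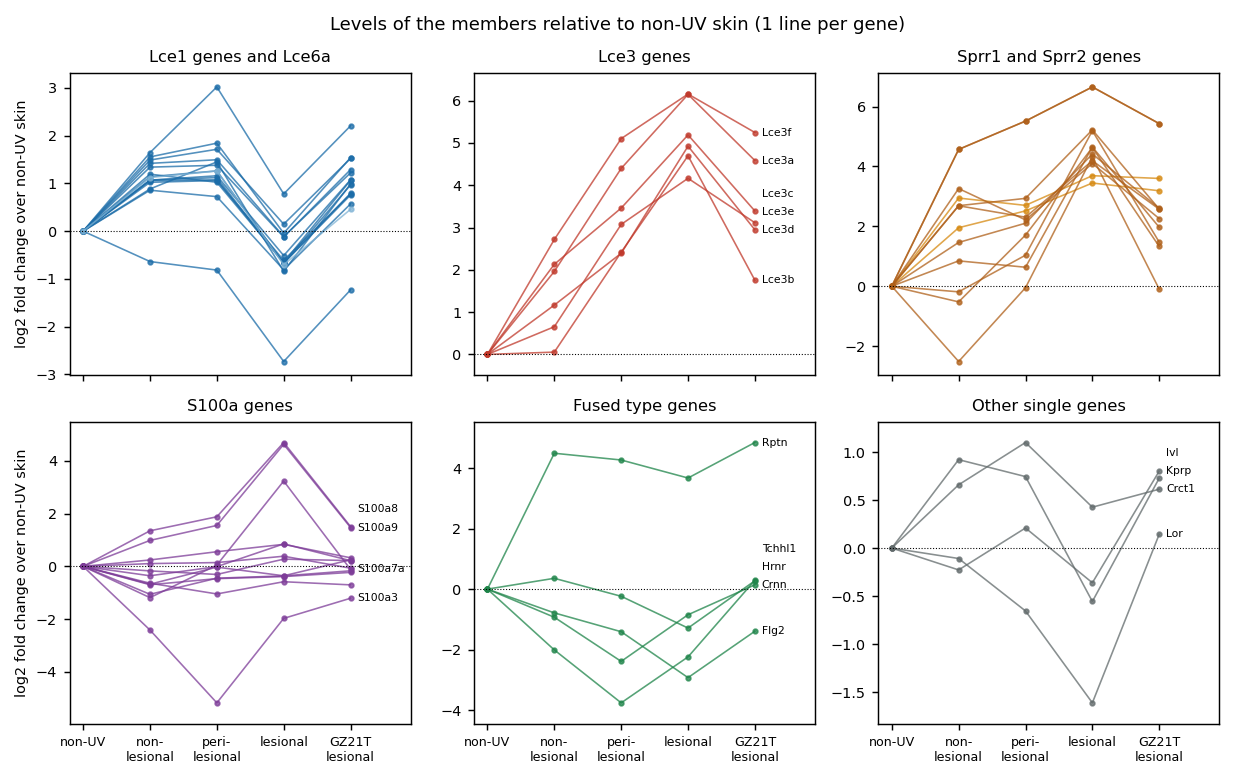
Log2 fold change over non-UV skin of each member in the 5 groups, 1 line per gene and 1 panel per gene family, without Sprr2k, Sprr3, Sprr4, S100a2, S100a5 and Lelp1. Lce1 lines drop at placebo lesional skin to a median of -0.63 and stand at a median of 1.03 in GZ21T lesional skin, while Lce3 lines peak at placebo lesional skin, with a median of 5.06.

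Set along the 5 groups, the Lce1 median was 1.10 in non-lesional, 1.21 in perilesional, -0.63 in placebo lesional and 1.03 in GZ21T lesional skin, as log2 differences from non-UV skin. The values for non-lesional and placebo lesional skin come from the authors' deposited tables and the others are sums of their values. Libraries are shared between these values, so no test of their order or likeness was made. Along the chromosome, the Sprr genes are followed by Lce6a, the Lce1 genes from Lce1a1 to Lce1l with Kprp among them, the Lce3 genes, Crct1 and Lce1m. Members that rose in lesional over non-UV skin therefore flank the run in which genes fell from perilesional to lesional skin on both sides. The rise and the fall come from different comparisons. The flanking genes were not called from perilesional to lesional skin, and Lce1m was the single Lce1 gene called in lesional over non-UV skin.

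**Figure D5:**
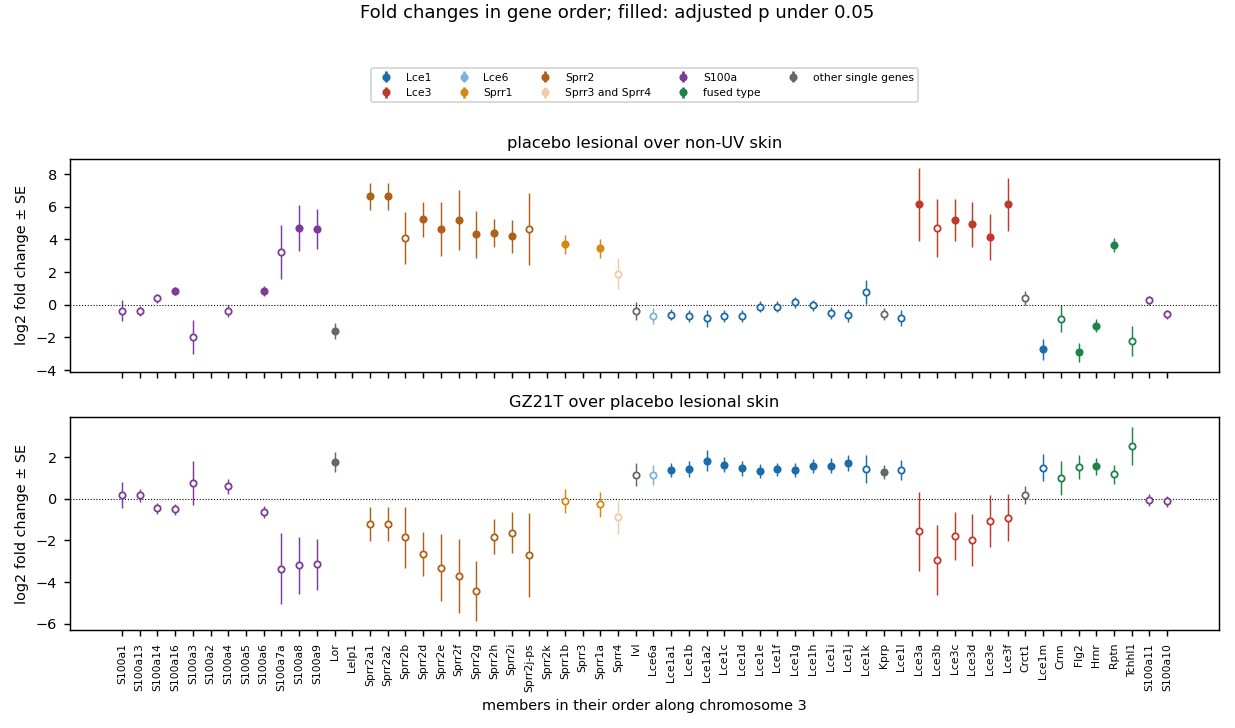
Log2 fold change ± SE of each member by its place in the gene order along chromosome 3, in placebo lesional over non-UV skin (upper panel) and GZ21T over placebo lesional skin (lower panel), filled where the adjusted p was under 0.05; members with no SE or one over 3 have no point. The drawn Sprr2 and Lce3 genes stand above 4 in the upper panel, and the Lce1 genes stand at 1.34 or above in the lower one.

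Genes outside the block that make or accompany the envelope were read from lists chosen with earlier results of these data known. Of the 22 cross-linking and processing enzymes in the tables, 2 rose and 0 fell in non-lesional over non-UV skin in the authors' deposited table, Tgm5 by 1.17 ± 0.31 (adjusted p = 0.015) and the protease gene Klk7 by 1.17 ± 0.31 (adjusted p = 0.016). The share of all genes called higher there was 1.13%. In lesional over non-UV skin 3 rose and 1 fell of 22 tested in the authors' deposited table, a share close to the 18.3% of all genes. Tgm1, the main transglutaminase of the envelope, rose there by 1.52 ± 0.47 (adjusted p = 0.013) and the lipoxygenase gene Aloxe3 fell by 1.49 ± 0.37 (adjusted p = 0.001). Tgm3 rose by 2.03 ± 0.53 into the lesion by the derived contrast (adjusted p = 0.032), where 0.309% of all genes were higher. Under GZ21T, Casp14, a protease that processes filaggrin, rose by 1.05 ± 0.32 (adjusted p = 0.041) and Klk5 by 1.14 ± 0.34 (adjusted p = 0.041) per the authors' deposited table, 2 of 19 tested. Among all genes 1.31% were higher under GZ21T.

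Envelope and desmosome proteins coded elsewhere had 5 higher and 0 lower of 24 tested in non-lesional over non-UV skin in the authors' deposited table, where 1.13% of all genes were higher. In lesional over non-UV skin 6 rose and 5 fell of 24 in the authors' deposited table, where 10.2% of all genes rose and 8.17% fell. Under GZ21T 3 rose and 1 fell of 24 in the authors' deposited table, where 1.31% of all genes rose and 2.29% fell. Sbsn, the gene of suprabasin, rose there by 1.29 ± 0.34 (adjusted p = 0.019) and Serpinb2 fell by 2.13 ± 0.64 (adjusted p = 0.041).

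Transcription factors of epidermal differentiation, 23 genes, had 6 higher and 3 lower in lesional over non-UV skin in the authors' deposited table (10.2% and 8.17% of all genes), among them Elf3, which rose by 3.55 ± 0.70, and 0 called under GZ21T. Of the 9 AP-1 genes, Fosl1 rose by 3.48 ± 0.75 from perilesional to lesional skin by the derived contrast (adjusted p = 0.003). That contrast called 0.309% of all genes higher. Fosl1, per the authors' deposited table for the cream, fell by 2.46 ± 0.75 (adjusted p = 0.041) and Fosb by 3.00 ± 0.93 (adjusted p = 0.042). These were 2 of 8 tested, where 2.29% of all genes were lower. Of the same 9, 0 rose and 2 fell in non-lesional over non-UV skin per the authors' deposited table, Fosb by 3.98 ± 0.90 (adjusted p = 0.0022) and Atf3 by 3.21 ± 0.61 (adjusted p = 5.9e-05). There 0.531% of all genes were lower. In lesional over non-UV skin 1 rose and 1 fell per the authors' deposited table, Junb by 1.57 ± 0.35 and Atf3 by 1.62 ± 0.59 (adjusted p = 0.038). The shares of all genes there were 10.2% higher and 8.17% lower. Of 10 partners and receptors of S100 proteins, Bsg rose by 1.19 ± 0.37 (adjusted p = 0.012) and Ahnak fell by 0.83 ± 0.19 (adjusted p = 0.001) in lesional over non-UV skin in the authors' deposited table, a share close to the 18.3% of all genes, and 0 were called in the other comparisons.

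Of the other genes of the block, Tchh, Pglyrp3 and Pglyrp4 had rows and Flg was not among the rows used here. Pglyrp4, a peptidoglycan recognition protein, rose by 1.46 ± 0.36 in non-lesional over non-UV skin per the authors' deposited table (adjusted p = 0.006). Tchh, the gene of trichohyalin, a hair follicle protein, fell by 3.66 in perilesional over non-lesional skin per the authors' deposited table. Among 7 macrophage markers in the tables, Cd68 fell by 2.23 ± 0.57 in non-lesional over non-UV skin per the authors' deposited table (adjusted p = 0.010), and 0 were called in lesional over non-UV skin or under GZ21T. In non-lesional over non-UV skin 0.531% of all genes were lower. Of the 6 basal keratinocyte markers, Krt14 rose by 0.95 ± 0.35 in lesional over non-UV skin per the authors' deposited table (adjusted p = 0.038), and 2 fell, Krt15 and Col17a1. That comparison called 10.2% of all genes higher and 8.17% lower.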

How the data were processed

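The submitters' processing notes name Trim Galore, DESeq2 and the build GRCm38 (mm10). Which aligner, counter, versions and model formula were used is not given in the sources used here. Libraries were TruSeq Stranded Total RNA, per the labels' protocols. The authors deposited 4 tables of 1 comparison each, which hold a log2 fold change, the Wald statistic (a score), a p-value and an adjusted p-value per gene, per the file headers. They hold no counts, so depth per library is unknown and precision is given by the SE, which is the log2 fold change divided by the Wald statistic. Adjusted p-values are those of the DESeq2 Wald test with Benjamini-Hochberg adjustment, and a gene with none was not tested.

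The name of 1 table gives perilesional and lesional skin, its header lesional against back. Of 1195 genes at exactly 0 in perilesional over non-lesional skin, 271 were negative in it, so its header was followed; back was taken as non-UV skin by elimination. The cream table, deposited as placebo over GZ21T, was turned in sign. Lesional over perilesional skin was the lesional value minus the 2 steps before it, and its variance came from a model with group alone. It and GZ21T lesional over non-lesional skin were given a normal test, adjusted over 15187 genes. The calculation was run on data simulated under the same group-alone model. Such data cannot show whether that model holds for these libraries. Members, lists and tests were chosen with earlier results of these data known. Genes named were drawn from all called members, the extremes of each group, 10 fixed genes, and up to 4 genes of each other list in the comparison described. Promoters came from RefSeq, coordinates from GENCODE M21. Alternatives were other SEs, other adjustment sets, median centring and a spread estimated from all genes. Python 3.11.15, pandas 2.3.3, numpy 2.4.6, scipy 1.17.1 and matplotlib 3.10.9 were used.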

Additional observations from a re-analysis of the deposited data

How the results depend on the processing

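Median centring, adjustment over every gene with a p-value, counting the identical Sprr2a rows once, and leaving out members that share over 50% of their 50-base words (the last chosen after seeing the data) kept each comparison's count of all called members within 1.5 times. The 2 Sprr2 genes higher in non-lesional over non-UV skin became 1 and 0 under the last 2 of these. The 13 members lower in lesional than perilesional skin became 0 with the 3 variances summed and 6 with the spread of the Wald statistic estimated from all genes. That spread took the 20 members higher in lesional over non-UV skin to 3, the 4 lower to 0, and the 14 higher under GZ21T to 0. Adjustment over genes tested in all 4 tables took the 20 to 13, with fewer genes tested by construction. Kprp lost its call in lesional over perilesional skin with the largest of the 3 deposited SEs (adjusted p = 0.052). Of 255 values of single called genes under the alternatives, 199 kept their call, 56 lost it and 0 reversed. The spread of the Wald statistic over all genes was 1.92 in lesional over non-UV skin and 1.64 under GZ21T. It was taken over all genes, changed genes included. No paired analysis was possible because the tables hold no values per library, and leaving out single libraries could not be run for the same reason.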
